A study of Mus musculus with 12 samples.

Results

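*Vmp1* and 9 core autophagy genes were followed in cultured mouse peritoneal macrophages (PMs) in which miR-21 was lowered by an antagomir or supplied in exosomes of sensory neurons. The 10 genes were taken by name from the 18193 genes that the arrays measure, and each is represented by its probe set with the highest mean log2 signal over all arrays. All 10 were measured, and they have 31 probe sets in all. The 12 Affymetrix mouse arrays fall into 6 groups of 2. PMs received the transfection reagent alone (labelled Lipofectamin), a scramble control oligonucleotide, or antagomir-21, an antisense oligonucleotide directed at miR-21. Each of the 3 transfections was combined with exosomes of sensory neurons that overexpressed either miR-21 or a GFP reporter. Every group therefore had the lipid reagent and neuronal exosomes, and no group was free of either. The study's methods give C57BL/6 mice of both sexes for the work as a whole, and the labels give no strain, age or sex for the arrays. The methods describe independently collected replicates, more than the 2 per group analysed here. The labels do not say which arrays share a culture, so the tests measure the spread between these arrays. No value for mature miR-21 or its precursor was read from these arrays, so the loss or gain of miR-21 in each group is taken from the labels.

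Autophagy delivers cytoplasm, damaged organelles and engulfed material to the lysosome. The ULK1 kinase complex starts the process, a class III phosphatidylinositol 3-kinase complex with Beclin 1 marks the membrane, and 2 conjugation reactions attach ATG8 proteins such as LC3B to lipid, so that receptors such as p62 can bring in cargo. Macrophages also use part of this machinery to attach LC3 to the phagosome during LC3-associated phagocytosis. VMP1 is a membrane protein of the endoplasmic reticulum that is needed for autophagosomes to form. Its gene is known in miRNA biology because the miR-21 precursor is encoded at its end, on the same strand.

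The mature miR-21 sequences are shown because they are encoded within *Vmp1* and because the guide strand, miR-21a-5p, is the target of the antagomir according to the methods. They are RefSeq records on GRCm38.p6, written from 5′ to 3′, and the capitals mark the seed (bases 2 to 8). No build is given for the arrays in the sources used here, and these coordinates belong to the RefSeq records alone.
mmu-miR-21a-5p: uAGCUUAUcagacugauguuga
mmu-miR-21a-3p: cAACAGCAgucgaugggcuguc
The first lies at chr11:86584120-86584141 and the second at chr11:86584082-86584103, both on the minus strand. Their hairpin, *Mir21a*, is 92 bases long and lies wholly inside the 99979-base interval of *Vmp1*, 209 bases from that interval's end. The arms do not share a seed. *Vmp1* is not the only member on chromosome 11: *Gabarap*, *Sqstm1*, *Becn1* and *Wipi1* are there too, 5 of the 10 genes in all, against 8.0% of the measured genes with a known chromosome.

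*Vmp1* transcripts were read on every array within a narrow band. With GFP exosomes, the log2 signals were 11.19 and 11.53 for lipofectamine, 11.45 and 11.83 for scramble, and 11.36 and 11.85 for antagomir-21. With miR-21 exosomes they were 10.91 and 11.59 for lipofectamine, 10.52 and 11.14 for scramble, and 11.77 and 10.64 for antagomir-21. The PMs given scramble and miR-21 exosomes had the lowest mean, and both of their arrays were below all 6 arrays with GFP exosomes. In the order of the 6 means, scramble with GFP (11.64), antagomir-21 with GFP (11.60), lipofectamine with GFP (11.36), lipofectamine with miR-21 (11.25), antagomir-21 with miR-21 (11.20) and scramble with miR-21 (10.83), no neighbouring groups were separated. Over all arrays the log2 signal was 11.31 ± 0.45 (SD, n = 12), and the 6 means spanned 0.80. By this probe set, the spread between arrays of one group was 0.47 (pooled SD), at the 4.24th percentile of all measured genes. Its mean signal was at the 93.9th percentile, and the spread was not compared with that of genes of like signal. Other bright autophagy genes had a smaller spread still, such as *Nbr1* (percentile 1.72) and *Atg3* (percentile 3.80).

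No difference in *Vmp1* passed a test. A moderated F test over the 6 groups (limma) gave an unadjusted p of 0.933 and an adjusted p of 0.9999. After scramble, miR-21 exosomes differed from GFP exosomes by −0.80 log2 (SE 0.85, 95% interval −2.68 to 1.07; limma, adjusted p = 0.999). Over all 3 transfections the difference was −0.44 (SE 0.49, interval −1.52 to 0.65; limma, adjusted p = 0.970). Antagomir-21 against scramble gave −0.033 with GFP exosomes (interval −1.91 to 1.85) and 0.37 with miR-21 exosomes (interval −1.51 to 2.25). Neither interval leaves out a change of 1 log2 unit, so a change of that size was not detectable with these arrays. *Vmp1* has a second probe set, with a log2 signal of 7.18 ± 1.67 (SD, n = 12), whose correlation with the first over the arrays was low (Pearson r = 0.15, Spearman rho = 0.18). It gave −2.55 (SE 1.68) for miR-21 against GFP exosomes after scramble and −1.52 (SE 1.68) for antagomir-21 against scramble under GFP exosomes, with unadjusted p values of 0.158 and 0.387 (limma). After antagomir-21, miR-21 against GFP exosomes gave 0.91 by this probe set, opposite in sign to the −0.40 of the first. With lipofectamine the same difference was −0.63, beside −0.11 by the first. For antagomir-21 against scramble with miR-21 exosomes it gave 1.94 beside 0.37. Where in the *Vmp1* transcript either probe set lies relative to the miR-21 hairpin was not analysed here.

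**Figure D1:**
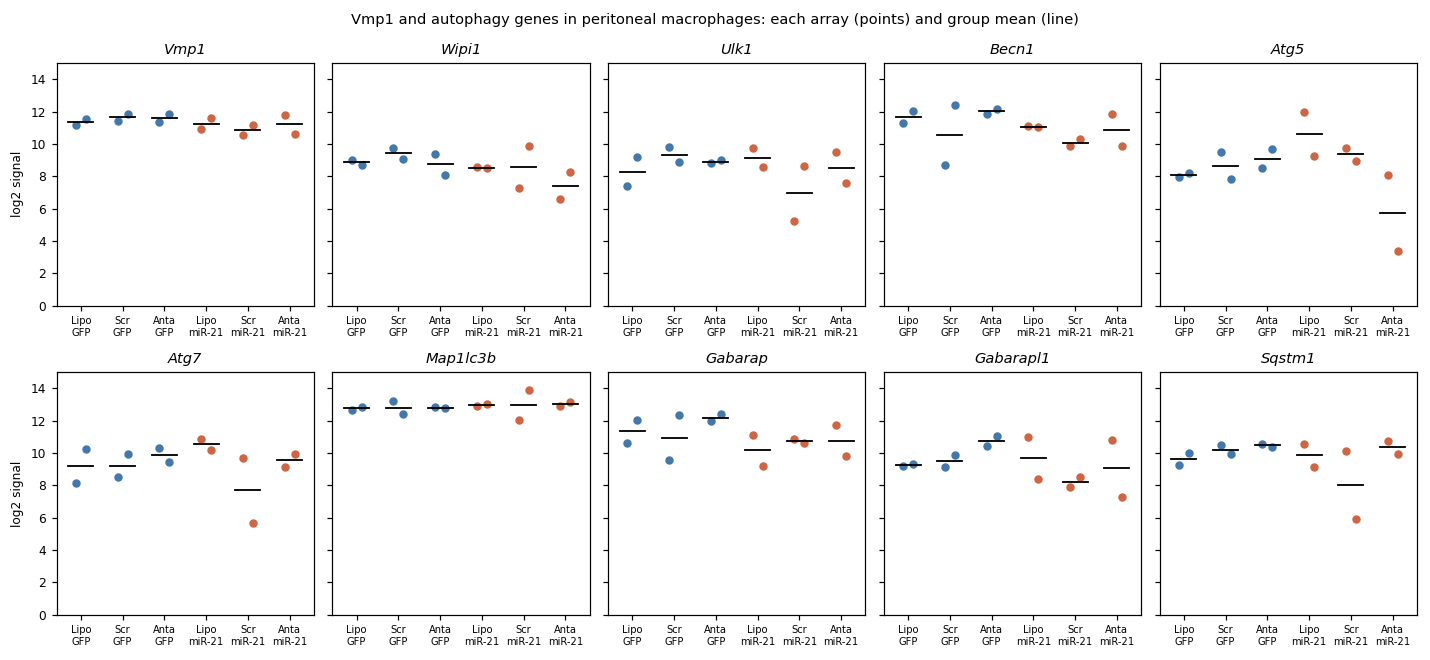
Log2 signal (vertical axis, 0 to 15) of *Vmp1* and 9 autophagy genes in the 6 groups. Each point is 1 array and each line a mean of 2; blue is GFP exosomes, orange miR-21 exosomes, and Lipo, Scr and Anta stand for lipofectamine, scramble and antagomir-21. *Vmp1* and *Map1lc3b* stay within a narrow band, while in *Atg5*, *Sqstm1*, *Atg7*, *Becn1*, *Gabarapl1* and *Ulk1* single arrays lie far below their partner.

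The arrays themselves set how closely such values can be read. The deposited log2 signals had medians of 7.92 to 8.58 and SDs of 2.04 to 2.48 per array, and arrays of one group correlated no better with each other (mean r = 0.591 over 6 pairs) than arrays of different groups did (0.602 over 60 pairs). The 10 macrophage markers averaged 10.60 to 12.15 per array, with the efferocytosis receptor gene *Mertk* at 10.68 ± 0.55 and the receptor gene *Csf1r* at 16.43 ± 0.67 (SD, n = 12 arrays each), and both were above the array's median on every array. So were the macrophage markers *Adgre1*, *Lyz2* and *Cd68*. In contrast, *Icam2* lay under that median on 4 arrays, *Itgam* on 3, *Gata6* on 2, and *Timd4* and *Cd14* on 1 each. Markers of other peritoneal cells were read as well: *Ms4a1*, the B cell antigen CD20, had 12.41 ± 0.81 and the mast cell protease gene *Cpa3* 10.02 ± 0.90 (SD, n = 12). Other markers of the same cells were low: *Pax5*, a B cell transcription factor, lay under the array's median on 10 of 12 arrays, *Mcpt4*, another mast cell protease gene, on 11, and *Kit* and *Fcer1a*, mast cell receptor genes, on 8 each. Among sensory neuron markers, *Scn10a*, *Prph* and *Trpv1* lay under the array's median on 11 of 12 arrays, *Tubb3* on 10 and *Isl1* on 4. Among dendritic cell markers, *Flt3* and *Cd209a* did so on 11, *Xcr1* on 4 and *Zbtb46* on 2. Among mesothelial markers it was *Upk3b* on 11, *Krt19* on 10, *Msln* on 9, *Krt18* on 6 and *Wt1* on 5. In such bulk samples, fewer cells of a type and less RNA per cell cannot be told apart. The values carry no measure of background, and the number of arrays limits the precision.

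Genes that start autophagy and build the first membrane varied more than *Vmp1*. *Ulk1*, the initiating kinase, had log2 signals of 7.38 and 9.20 (lipofectamine), 9.81 and 8.86 (scramble) and 8.82 and 8.98 (antagomir-21) with GFP exosomes. With miR-21 exosomes its signals were 9.74 and 8.57, 5.24 and 8.65, and 9.51 and 7.56 in the same order of transfections. One scramble array with miR-21 exosomes was thus more than 2 log2 units below every other reading of the gene, and its partner was in the range of the rest. The mean after scramble was lower with miR-21 exosomes by 2.39 log2 units. The groups did not overlap, as in 28.8% of all genes in either direction. The test did not separate them (limma, difference −2.39, SE 1.27, interval −5.22 to 0.43, unadjusted p = 0.088, adjusted p = 0.965). By the other *Ulk1* probe set these groups overlapped, with 8.69 and 5.56 for miR-21 and 9.29 and 5.35 for GFP exosomes.

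*Becn1*, which encodes the Beclin 1 subunit of the lipid kinase complex, had 11.27 and 12.04, 8.71 and 12.41, and 11.88 and 12.15 with GFP exosomes (lipofectamine, scramble, antagomir-21). Its log2 signals with miR-21 exosomes were 11.10 and 11.03, 9.87 and 10.28, and 11.82 and 9.88. The scramble arrays with GFP differed by 3.70 log2 units, more than any 2 group means did (span 1.93). Antagomir-21 with GFP had the highest mean (12.01) and scramble with miR-21 the lowest (10.08); among neighbours in the order of means, only lipofectamine with GFP and lipofectamine with miR-21 did not overlap.

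*Wipi1*, whose product binds the phosphatidylinositol 3-phosphate made by that complex, had 8.99 and 8.72, 9.74 and 9.10, and 9.41 and 8.08 with GFP exosomes, again for lipofectamine, scramble and antagomir-21. With miR-21 exosomes the log2 signals were 8.55 and 8.50, 7.28 and 9.85, and 6.58 and 8.26. The mean was lower with miR-21 than with GFP exosomes in each of the 3 transfections, by 0.33, 0.85 and 1.32 log2 units. Over all transfections the difference was −0.83 (limma, SE 0.62, interval −2.21 to 0.54, adjusted p = 0.970). Of the 5 other *Wipi1* probe sets, only 1 had this direction over all transfections. With lipofectamine it was also 1 of 5, and after scramble and after antagomir-21 it was 3 of 5 each.

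Single low readings also occurred among the conjugation genes. *Atg7*, the E1-like enzyme that activates ATG8 proteins and ATG12, had 8.14 and 10.26, 8.54 and 9.92, and 10.33 and 9.44 with GFP exosomes (lipofectamine, scramble, antagomir-21). With miR-21 exosomes it had 10.85 and 10.22, 9.71 and 5.66, and 9.15 and 9.93. The 5.66 of one scramble array stood alone, and on the same array *Sqstm1* was also at its lowest.

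*Atg5*, whose product joins ATG12 in the complex that attaches LC3 to lipid, spanned more log2 units than any other member. With GFP exosomes its signals were 7.95 and 8.23 (lipofectamine), 9.50 and 7.83 (scramble) and 8.52 and 9.66 (antagomir-21). With miR-21 exosomes they were 11.95 and 9.24, 9.76 and 8.97, and 8.06 and 3.36. The antagomir-21 arrays with miR-21 exosomes thus differed from each other by 4.70, yet both lay below the arrays of antagomir-21 with GFP and of scramble with miR-21, while lipofectamine with miR-21 exosomes had the highest mean (10.60).

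*Atg5* gave the only tests among the members with an unadjusted p under 0.05. After antagomir-21, its log2 signal was lower with miR-21 than with GFP exosomes by 3.38 (difference −3.38, SE 1.501, interval −6.71 to −0.048; limma, unadjusted p = 0.047, adjusted p = 0.861). With miR-21 exosomes, it was lower after antagomir-21 than after scramble (difference −3.66, SE 1.501, interval −6.99 to −0.33; limma, unadjusted p = 0.034, adjusted p = 0.916). The comparisons share the antagomir-21 arrays with miR-21 exosomes. Without the array that read 3.36, the differences were −1.03 and −1.31, with unadjusted p values of 0.467 and 0.361 (limma). Leaving out each of the 12 arrays in turn, the first difference lost an unadjusted p under 0.05 in 9 fits and the second in 3 (without either scramble array with miR-21 exosomes, or without the array at 3.36). That array had the highest lower quartile of all probe sets (7.04), and its macrophage markers averaged 11.14 against 12.15 on its partner. The part of these in the result was not tested. The other *Atg5* probe sets did not repeat the difference: after antagomir-21 they gave 0.31 (SE 1.19) and 0.21 (SE 1.63) for miR-21 against GFP exosomes, and their correlations with the first over the 12 arrays were 0.17 and −0.37.

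*Map1lc3b*, which encodes LC3B, differed least between the groups. With GFP exosomes its log2 signals were 12.69 and 12.86 (lipofectamine), 13.20 and 12.40 (scramble) and 12.83 and 12.78 (antagomir-21). With miR-21 exosomes they were 12.93 and 13.03, 12.02 and 13.92, and 12.91 and 13.16. The 6 means lay within 0.26 log2 units of each other, whereas the scramble arrays with miR-21 exosomes differed by 1.90. The moderated F test over the groups gave an unadjusted p of 0.999 (limma), and for miR-21 against GFP exosomes over all transfections the interval ran from −0.94 to 1.35 around 0.20. The dimmest of its other 3 probe sets read otherwise. It had 8.63 and 9.07 for scramble with GFP and 4.84 and 5.70 for scramble with miR-21 exosomes (difference −3.58, SE 1.02; limma over all probe sets, unadjusted p = 0.005, adjusted p = 0.738). A further probe set, with the second-highest mean, gave 0.32 (SE 1.12) there.

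*Gabarap* and *Gabarapl1*, of the other branch of the ATG8 family, were highest after antagomir-21 with GFP exosomes. *Gabarap* had 10.65 and 12.07, 9.58 and 12.33, and 11.996 and 12.38 with GFP exosomes, and 11.10 and 9.22, 10.85 and 10.60, and 11.70 and 9.79 with miR-21 exosomes (lipofectamine, scramble, antagomir-21). *Gabarapl1* had 9.21 and 9.33, 9.16 and 9.86, and 10.43 and 11.02 with GFP exosomes, and 10.99 and 8.38, 7.88 and 8.50, and 10.83 and 7.29 with miR-21 exosomes. In both genes the antagomir-21 arrays with GFP exosomes lay close together while those with miR-21 exosomes were 1.91 and 3.54 log2 units apart. *Gabarapl1* after antagomir-21 with GFP was above both scramble arrays with GFP, by 1.21 on average (interval −1.59 to 4.02; limma, adjusted p = 0.9997).

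*Sqstm1*, which encodes the cargo receptor p62, had 9.26 and 10.01, 10.49 and 9.92, and 10.57 and 10.37 with GFP exosomes. With miR-21 exosomes it had 10.56 and 9.16, 10.15 and 5.93, and 10.72 and 9.97, in the order lipofectamine, scramble, antagomir-21. Apart from the single array at 5.93, its log2 signals were between 9.16 and 10.72.

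Across the 10 genes, the lowest mean fell to PMs given scramble and miR-21 exosomes in 6 (*Vmp1*, *Ulk1*, *Becn1*, *Atg7*, *Gabarapl1* and *Sqstm1*), and the highest to antagomir-21 with GFP exosomes in 4 (*Becn1*, *Gabarap*, *Gabarapl1* and *Sqstm1*). These groups are singled out here by the members' own means, so the counts of their comparison are a description. Set directly against each other, the first of these groups had the lower mean in 8 of the 10 genes, with a median difference of −1.70 log2 beside 0.028 over all measured genes. The members lie between the 62.8th and 98.1th percentiles of mean signal, and over the 9096 genes above the median signal the median difference was −0.26, with 38.2% higher. With each array centred on its own median it was −0.29 over all measured genes. Of the 10, *Vmp1*, *Ulk1*, *Becn1*, *Gabarap*, *Gabarapl1* and *Sqstm1* had both scramble arrays below both antagomir-21 arrays, 6 genes, where 16.2% of all genes lay apart in that direction and 35.7% in either. The share that lay apart among genes of like signal was not computed. None of the 10 members was called at an unadjusted p under 0.05, against 7.17% of all genes. In a fit to the 9096 genes above the median signal, 506 were called. The nearest were *Gabarapl1* (−2.54, SE 1.26, interval −5.34 to 0.26; limma, unadjusted p = 0.071, adjusted p = 0.754) and *Sqstm1* (−2.43, SE 1.27, interval −5.26 to 0.40; limma, unadjusted p = 0.084, adjusted p = 0.777). The *Sqstm1* difference came mainly from the single array at 5.93. The other probe set of *Sqstm1*, and that of *Ulk1*, had the opposite direction in this comparison. The groups also differed in markers of other cells. The 4 B cell markers measured averaged 10.04 and 10.13 for scramble with miR-21 exosomes and 9.15 and 9.33 for antagomir-21 with GFP, though only 1 of the 4 had the higher mean. The 5 sensory neuron markers, most of them under the array's median on most arrays, averaged 7.21 and 7.64 against 4.80 and 5.74, with 4 of 5 higher. The 10 macrophage markers averaged 11.43 and 11.55 against 11.75 and 12.10, with 6 of 10 lower. The SD of all probe sets was 2.04 and 2.29 on the former arrays and 2.47 and 2.48 on the latter. The part of these in the result was not tested.

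**Figure D2:**
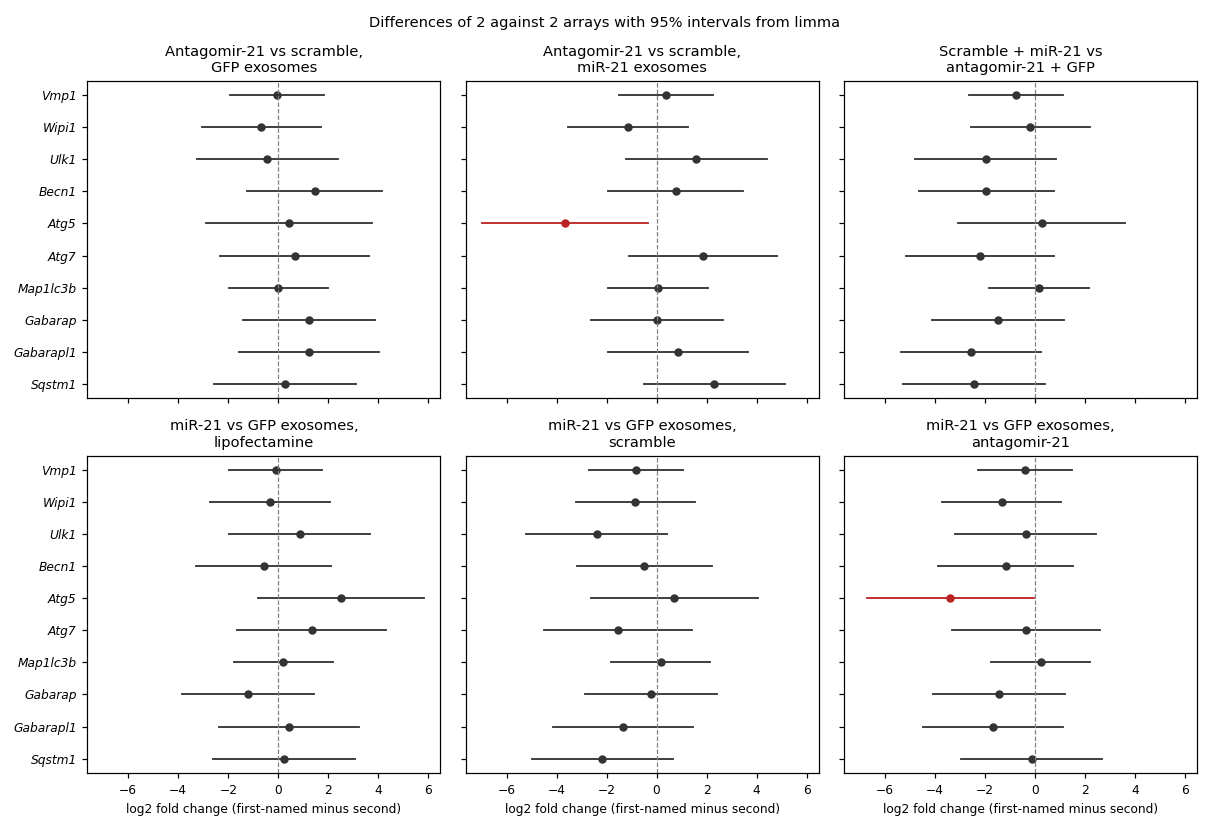
Log2 fold changes (points) with 95% intervals (lines) from limma for the 10 genes in 6 comparisons of 2 against 2 arrays, first-named group minus second; red marks an unadjusted p under 0.05. The 2 red intervals are both *Atg5*, at −3.66 and −3.38, and the other 58 cross 0.

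Exosome effects were compared within each transfection. With lipofectamine alone, 6 of the 10 genes had the higher mean with miR-21 exosomes, and the median difference was 0.22 log2 (−0.018 over all genes, −0.13 over those above the median signal). Here *Atg5* and *Map1lc3b* were higher and *Becn1* and *Wipi1* lower without overlap, 4 genes beside a background of 35.4%, and none was called, against 3.84% of all genes. All 4 dendritic cell markers had the higher mean with miR-21 exosomes (list means 7.47 and 7.48 against 5.90 and 6.98) and all 5 sensory neuron markers the lower (4.99 and 5.87 against 6.09 and 7.62). After scramble, 8 of 10 genes had the lower mean with miR-21 exosomes (median −0.83, over all genes 0.040, over those above the median signal −0.11). *Vmp1*, *Ulk1* and *Gabarapl1* were lower without overlap, 3 genes beside backgrounds of 12.2% in that direction and 28.8% in either, and none was called (5.7% of all genes). All 4 B cell markers also had the higher mean with miR-21 exosomes after scramble (list means 10.04 and 10.13 against 8.39 and 8.47). After antagomir-21, 9 of 10 genes had the lower mean with miR-21 exosomes (median −0.78, over all genes −0.077, over those above the median signal −0.26). Both arrays were lower for *Atg5*, *Becn1* and *Gabarap* and higher for *Map1lc3b*, 4 genes beside 30.9%, and 1 gene, *Atg5*, was called, against 5.68% of all genes. In that comparison 4 of 5 mesothelial markers had the higher mean (list means 7.56 and 8.04 against 5.92 and 6.65) and 8 of 10 macrophage markers the lower (11.14 and 12.15 against 11.75 and 12.10). The part of these markers in the results was not tested. Over all transfections, 9 of 10 genes had the lower mean with miR-21 exosomes (median −0.66, over all genes −0.022), and 0 were called (5.45%). The 10 genes have 21 other probe sets, of which 9 had the same direction here as the one used. Of the genes above the median signal, 35.2% had the higher mean (median −0.19), and with median centring the median over all genes was −0.26. The largest of these differences was that of *Gabarap* (−0.96, SE 0.69, interval −2.48 to 0.57; limma, adjusted p = 0.970).

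Antagomir-21 was compared with scramble under each exosome. With GFP exosomes, 7 of 10 genes had the higher mean after antagomir-21 (median 0.35, over all genes 0.033, over those above the median signal 0.15). Only *Gabarapl1* was without overlap, 1 gene beside 35.8%, and 0 were called, against 5.38% of all genes. With miR-21 exosomes, 8 of 10 had the higher mean (median 0.57, over all genes −0.053, over those above the median signal 0.037). *Atg5*, which was lower, was the only gene without overlap (background 26.2%) and the 1 gene called (5.3%). All 4 B cell markers had the lower mean after antagomir-21 here (list means 8.69 and 9.36 against 10.04 and 10.13), as had 4 of 5 mast cell markers (7.51 and 8.03 against 8.46 and 8.67). With GFP exosomes 8 of 10 macrophage markers had the higher mean after antagomir-21 (11.75 and 12.10 against 10.60 and 11.65), and the part of these markers was not tested. Over both exosomes 0 genes were called (5.16%), as for scramble against lipofectamine (4.14%), the interaction of antagomir-21 with the exosomes (5.36%) and the F test over the 6 groups (5.96%). After adjustment over all genes, 0.0% of genes were called in any of these comparisons, and the smallest adjusted p among the 110 tests of the members was 0.754. By the unpaired test without moderation, 3 members had an unadjusted p under 0.05 in the 6 comparisons of 2 groups, and 0 an adjusted one. The 95% intervals of those comparisons reached 1.88 to 3.33 log2 units to either side, so only changes beyond those sizes could have stood apart from 0 for these genes.

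The probe sets of a gene often disagreed. *Gabarap* has 1, and the other 9 genes have 21 besides those used. Of these 21, 14 had a positive correlation over the arrays with the one used and 4 a Pearson r above 0.5, with a median r of 0.17. *Becn1* (0.76 and 0.64), *Gabarapl1* (0.58) and *Map1lc3b* (0.51) held the 4, although Spearman's rho was 0.24 for the second of *Becn1* and 0.21 for that of *Map1lc3b*. For *Wipi1*, 1 of 5 had an r of −0.63. In scramble with miR-21 against antagomir-21 with GFP, 8 of the 21 had the same direction as the probe set used. In antagomir-21 against scramble it was 14 of 21 with GFP and 14 with miR-21 exosomes. For miR-21 against GFP exosomes it was 9 over all transfections, 9 after antagomir-21, 11 after scramble and 11 with lipofectamine. Over 10 comparisons, 18 of their 210 tests had an unadjusted p under 0.05 (8.57%, against 5.64% over all probe sets), and the smallest adjusted p was 0.415.

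**Figure D3:**
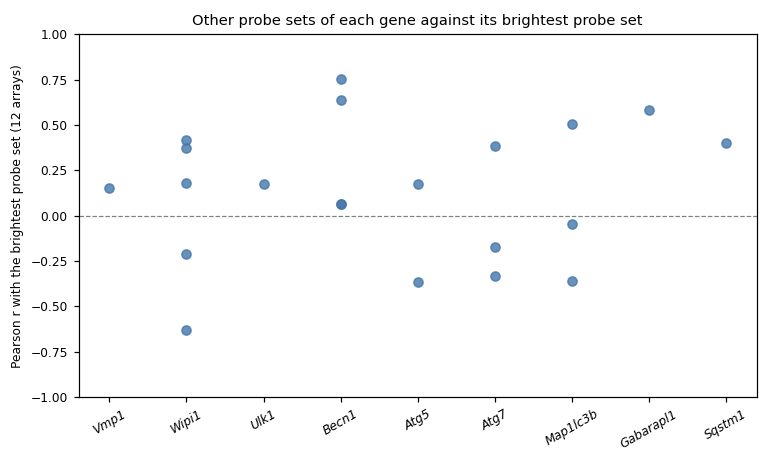
Pearson correlation (vertical axis, −1 to 1) over 12 arrays between the brightest probe set of each gene and each of its other probe sets (points); *Gabarap* has no other. Of the 21 points, 14 are above 0 and 4 above 0.5, and they run from −0.63 (*Wipi1*) to 0.76 (*Becn1*).

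The remaining 53 measured genes of a list of 65 autophagy genes were described by role. They gave 13 unadjusted p values under 0.05 in 583 tests (2.23%), from 8 genes, against 5.38% of the tests of all genes in the same 11 comparisons, and none passed adjustment. The share was below that background, which was not matched for signal. In a fit to the 9096 genes above the median signal, 211 to 506 were called per comparison, beside 698 to 1304 of all 18193. The genes are named as a description. *Atg2b*, a lipid transfer protein gene of membrane supply, had the smallest. Its log2 signals were 3.80 and 4.40 with lipofectamine and GFP exosomes and 9.08 and 8.17 with lipofectamine and miR-21 exosomes (difference 4.52, SE 1.09; limma, unadjusted p = 0.002, adjusted p = 0.999). Also for miR-21 against GFP exosomes with lipofectamine, *Stx17*, a SNARE for fusion with the lysosome (−2.60, SE 1.01), and *Atg4a*, a protease that trims ATG8 proteins (−2.59, SE 1.12), had lower signals. Both were lowest on the same array, replicate 1 of lipofectamine with miR-21 exosomes. There *Stx17* had 5.14 and *Atg4a* 4.99, beside 7.09 and 8.57 on its partner. *Atg4b*, another such protease, and *Wdr45*, a relative of *Wipi1*, were lowest in one and the same array: of scramble with GFP exosomes they had 4.76 and 7.75, and 5.04 and 8.62. Against that group, *Atg4b* was higher by 2.83 after antagomir-21 and by 3.15 with miR-21 exosomes, and *Wdr45* by 2.61 and 3.11; the comparisons share these arrays. *Map1lc3a*, a paralog of *Map1lc3b*, had 6.62 and 6.13 after antagomir-21 with GFP exosomes against 10.42 and 9.10 after scramble (−3.39, SE 1.42). *Epg5*, a tethering factor for late endosomes, was lower with miR-21 exosomes after antagomir-21 (−2.14, SE 0.96). *Pik3r4*, which encodes a subunit of the Beclin 1 complex, was higher with scramble than with lipofectamine over both exosomes (2.06, SE 0.72). The lowest signal of *Pik3r4*, 5.85, was also on replicate 1 of lipofectamine with miR-21 exosomes, beside 8.55 on its partner.

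By role, with the members counted in, the fusion genes had the lower mean with miR-21 than with GFP exosomes over all transfections in 7 of 8 (median −0.53), the membrane supply genes with *Vmp1* and *Wipi1* in 8 of 10 (median −0.28) and the cargo receptors with *Sqstm1* in 6 of 7 (median −0.47). The conjugation genes with *Atg5* and *Atg7* were divided, 5 and 5 (median 0.078), and the ULK1 complex had 3 of 5 genes higher (median 0.20). In the class III lipid kinase complex with *Becn1*, 5 of 8 genes were lower (median −0.035), in the ATG8 family 3 of 5 (median −0.12) and among the regulators 5 of 10 (median −0.057). Over the other 53 genes the median was −0.092 with 32 lower, beside −0.022 over all measured genes. Of all genes above the median signal, 35.2% had the higher mean in this comparison (median −0.19).

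**Figure D4:**
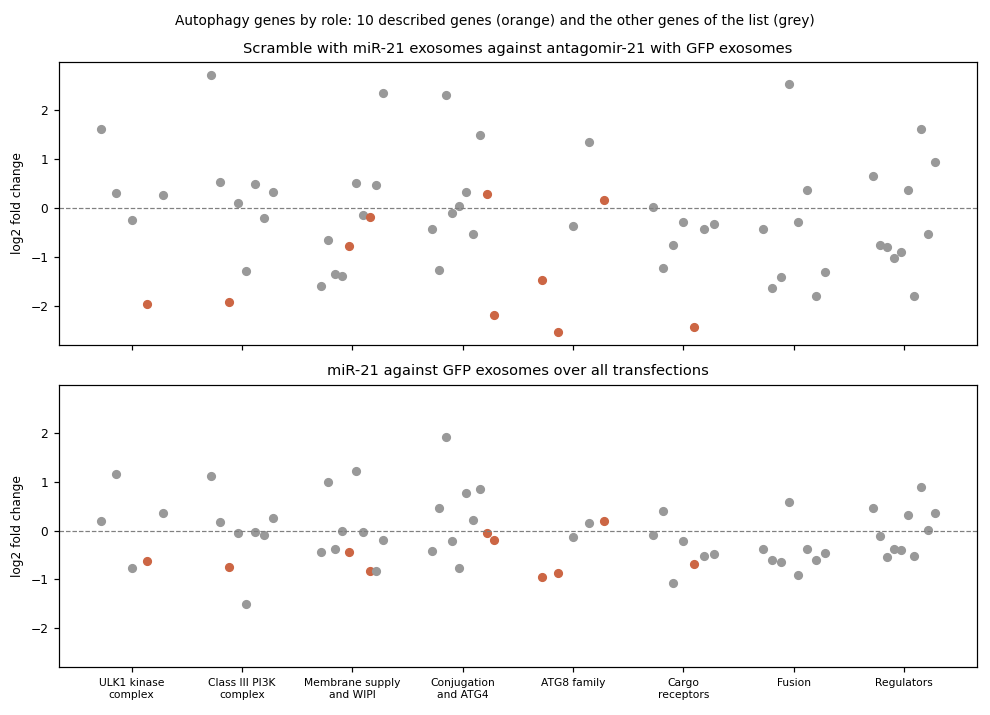
Log2 fold change (vertical axis) of 63 measured autophagy genes by role, for scramble with miR-21 against antagomir-21 with GFP exosomes (upper) and miR-21 against GFP exosomes over all transfections (lower); orange points are the 10 genes described here. In the upper panel 8 of the 10 orange points are below 0, and the 53 grey points lie on both sides (30 below 0).

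Patterns over the arrays were also set side by side. The genes most like *Vmp1* by Pearson correlation over the 12 arrays were *Opa1*, a mitochondrial fusion GTPase (r = 0.94, Spearman rho = 0.90), *Atp7a*, a copper transporter (r = 0.92, rho = 0.73), *Vamp3*, a SNARE of endosomes (r = 0.90, rho = 0.85), *Sptssa*, a subunit of serine palmitoyltransferase (r = 0.90, rho = 0.76), and *Llgl1*, a polarity protein (r = 0.89, rho = 0.86). They were picked as the highest of all measured genes, and the arrays share the scaling and groups, so the values are a description. Without the 2 arrays farthest from the *Vmp1* median (10.52 and 10.64), r was 0.89, 0.82, 0.78, 0.74 and 0.77. Among the members, *Ulk1* had r = 0.65, *Becn1* 0.61 and *Gabarapl1* 0.59, which became 0.11, 0.43 and 0.16 without those arrays. Of the 45 pairs among the 10 genes, 34 had a positive r, with a median of 0.15 and a range of −0.63 to 0.80. *Becn1* and *Gabarap* (r = 0.80, rho = 0.86) varied together, while the equal r of *Atg7* and *Sqstm1* (0.80) went with a rho of 0.31 and with the 1 array that was lowest in both.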

How the data were processed

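RNA of PMs was measured on 12 Affymetrix Mouse 430 2.0 arrays (6 groups of 2, from the labels). The values deposited by the authors are log2 signals, 1 per probe set and array. Their trimmed means on the linear scale, with the tails removed, were 496 to 499 on every array, whereas medians and quartiles differed, so the values were not quantile normalized as the methods describe, and no source used here names the program behind them. Of 45037 probe sets, 34945 had 1 gene symbol in the platform annotation, and each of 18193 genes was represented by its probe set with the highest mean. Differences were tested in R 4.3.3 by limma 3.58.1, fitting a mean for each of the 6 groups (6 residual degrees of freedom; moderated variances; adjusted p by Benjamini-Hochberg over all genes; an unadjusted p under 0.05 is the threshold of the methods). The procedure was tested on simulated data. The members and the autophagy and marker lists were chosen with earlier results of these data known. The text names all 10 members, other autophagy genes with an unadjusted p under 0.05 (at most 3 per direction and comparison) and the 5 genes most like *Vmp1*. Alternatives were quantile normalization, median centring, the mean of a gene's probe sets, genes above the median signal, an unpaired test, a replicate block and leaving out each array. Replicate numbers did not pair the arrays.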

Additional observations from a re-analysis of the deposited data

Results flagged for a closer look

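The effect of miR-21 against GFP exosomes on *Atg5*, which encodes a protein of the LC3 conjugation complex, was set between transfections. It was −3.38 log2 after antagomir-21 and 2.50 with lipofectamine, a difference of −5.88 (SE 2.12; limma, unadjusted p = 0.0193, adjusted p = 0.920). The test was chosen after seeing the data, as 1 of 30 such tests on the 10 genes; of all measured genes, 4.83% passed an unadjusted p under 0.05 in it. Without 1 array the difference ran from −8.23 to −3.54, and it lost that threshold without replicate 2 of antagomir-21 with miR-21 exosomes (−3.54), replicate 1 of lipofectamine with miR-21 exosomes (−4.53) or replicate 2 of antagomir-21 with GFP exosomes (−5.32), and with the mean of the probe sets (−1.61).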

How the results depend on the processing

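In no setting did a member pass an adjusted p. The counts of members with an unadjusted p under 0.05 changed as follows. With the mean of a gene's probe sets, and in the unpaired test, the count went from 1 to 0 for miR-21 versus GFP exosomes after antagomir-21 and for antagomir-21 against scramble with miR-21 exosomes; *Atg5* was then at −0.95 and −1.19 with the mean of probe sets. For scramble plus miR-21 exosomes versus antagomir-21 plus GFP exosomes it went from 0 to 1 with median centring (*Sqstm1*), to 1 with the mean of probe sets (*Gabarapl1*) and to 3 in the unpaired test (*Becn1*, *Gabarap* and *Gabarapl1*). *Vmp1* changed sign for antagomir-21 versus scramble under GFP exosomes, from −0.033 to 0.061 with median centring. For miR-21 versus GFP exosomes it went from −0.40 to 0.25 after antagomir-21 (mean of probe sets) and from −0.11 to 0.091 with lipofectamine (quantile normalization). Of 100 differences of the members, 7 changed sign with quantile normalization, 9 with median centring and 25 with the mean of probe sets. The replicate numbers gave 15 correlations of −0.192 to 0.167 between groups and do not pair the arrays; with the replicate block the count of members remained 1, 1 and 0 in the 3 comparisons above, and no sign changed.

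Without 1 array, the counts ran from 0 to 1 for antagomir-21 versus scramble under GFP exosomes, for miR-21 exosomes over all transfections, for the interaction and for the F test, from 0 to 0 for miR-21 against GFP exosomes with lipofectamine, and from 0 to 2 in the other 6 comparisons. *Atg5* ran from −5.73 to −1.03 for miR-21 versus GFP exosomes after antagomir-21 and from −6.01 to −1.31 for antagomir-21 against scramble with miR-21 exosomes. *Vmp1* ran from −0.28 to 0.21 (antagomir-21 against scramble, GFP exosomes), −0.20 to 0.94 (the same, miR-21 exosomes), −0.97 to 0.17 (miR-21 exosomes after antagomir-21), −1.11 to −0.49 (after scramble), −0.45 to 0.23 (with lipofectamine), −0.63 to −0.25 (over all transfections) and −1.08 to −0.46 (scramble with miR-21 against antagomir-21 with GFP). Members not called over all arrays were called, in at least 1 comparison, without replicate 1 of scramble with miR-21 exosomes (*Atg7* and *Sqstm1*, 12 calls in 100 tests), without its replicate 2 (*Ulk1*), without replicate 1 or replicate 2 of antagomir-21 with miR-21 exosomes (*Gabarapl1*) and without replicate 1 or replicate 2 of scramble with GFP exosomes (*Becn1*). A lone array was taken to vary like the other groups.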
